A study of Mus musculus with 20 samples.

Results

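T follicular helper (Tfh) cells are the CD4+ T cells that enter B cell follicles and help germinal centre B cells. The RNA of 10 genes of the Tfh programme (Bcl6, Cxcr5, Pdcd1, Il21, Maf, Tox, Tox2, Icos, Sh2d1a and Fam129b) was followed in T cells sorted by the Foxp3 reporter, that is in Treg cells and in Foxp3- CD4+ cells. The genes were chosen by name and each was found once in both deposited count tables, so they are 10 of 16740 genes in the table of pooled spleen and peripheral lymph nodes (pLNs) and 10 of 16784 in that of mesenteric lymph nodes (mLNs). All 10 passed the filter of at least 1 count over a table. All but Tox, Icos and Sh2d1a also stand among Tfh genes that the study chose on the spleen and pLN libraries, so their direction there is not independent evidence. The study also reported Tfh skewing in both cell types of mLNs. The 10 genes were chosen with earlier results of these data known, so their direction in mLNs is not independent evidence either.

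Cells came from C57BL/6 mice of 14 weeks. WT mice carried the Foxp3Cre allele, a fusion of YFP and Cre recombinase expressed with Foxp3, and DKO mice (Tet2/3fl/flFoxp3Cre) carried in addition floxed Tet2 and Tet3, so that both genes are deleted where Foxp3 is expressed. Treg cells were sorted as CD4+YFP+ and Foxp3- cells as CD4+YFP-, and a CD4+Foxp3- cell of a DKO mouse is therefore not itself deleted unless it once expressed Foxp3. There were 2 libraries in each of 4 groups from spleen and pLNs and 3 in each of 4 groups from mLNs, 20 in all, and each tissue was analysed on its own. The DKO mice of the spleen and pLN set were littermates that differed in the severity of splenomegaly. For Tfh genes the study reported little or no rise in Treg cells of the less affected littermate and a marked rise in the other. It described a similar trend in CD4+Foxp3- cells. The labels do not tell which replicate is which mouse.

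TET enzymes oxidise 5-methylcytosine, mostly at CG dinucleotides, and start its removal. In Tfh cells the repressor Bcl6 fixes the lineage, and Maf, Tox and Tox2 are transcription factors that act beside it. Cxcr5 is the chemokine receptor that leads the cell to the follicle, Icos a costimulatory receptor, Pdcd1 the inhibitory receptor PD-1, Sh2d1a the adaptor SAP that holds T and B cells together, and Il21 the cytokine that germinal centre B cells receive. Fam129b encodes a member of the Niban family. A fraction of Treg cells, T follicular regulatory cells, also uses Bcl6, Cxcr5 and Pdcd1 to reach the follicle.

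The genes lie apart in the genome. By GENCODE M1 on NCBIM37 (mm9), an annotation other than the RefSeq one used for counting, Bcl6 spans chr16:23965138-23988938, Il21 chr3:37121681-37131540, Pdcd1 chr1:95934884-95949130 and Icos chr1:61034771-61057164. Fam129b (chr2:32731634-32780774) and Tox2 (chr2:163028861-163149906) share a chromosome. Cxcr5 is at chr9:44319871-44334504, Maf at chr8:118206842-118231694, Tox at chr4:6613500-6918704 and Sh2d1a at chrX:39855630-39876874. The values are reads over whole genes, exons as annotated in RefSeq.

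RefSeq's table of promoters (GRCm38.p6) matched 5 of the 10 genes, Fam129b under its later symbol Niban2. The 250 bases before the outermost start were taken for the 4 genes with the largest log2 changes in DKO Treg cells of mLNs. They are printed 5′ to 3′ on the strand of the gene, with each CG dinucleotide, the sequence on which TET enzymes mostly act, in capitals. They cover chr16:23988853-23989102 for Bcl6, chr1:94052554-94052803 for Pdcd1 and chr3:37232637-37232886 for Il21, all on the minus strand, and chr2:32875884-32876133 on the plus strand for Fam129b.
Bcl6: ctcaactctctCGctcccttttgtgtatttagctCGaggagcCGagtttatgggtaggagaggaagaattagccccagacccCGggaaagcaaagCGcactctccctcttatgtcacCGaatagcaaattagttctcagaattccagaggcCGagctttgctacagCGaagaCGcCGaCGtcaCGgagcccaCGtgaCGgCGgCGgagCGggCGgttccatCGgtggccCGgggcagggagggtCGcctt
Pdcd1: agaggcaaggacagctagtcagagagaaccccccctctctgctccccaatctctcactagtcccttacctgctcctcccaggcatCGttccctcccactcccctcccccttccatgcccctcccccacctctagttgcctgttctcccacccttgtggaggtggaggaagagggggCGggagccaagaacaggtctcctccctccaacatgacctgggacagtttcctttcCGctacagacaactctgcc
Il21: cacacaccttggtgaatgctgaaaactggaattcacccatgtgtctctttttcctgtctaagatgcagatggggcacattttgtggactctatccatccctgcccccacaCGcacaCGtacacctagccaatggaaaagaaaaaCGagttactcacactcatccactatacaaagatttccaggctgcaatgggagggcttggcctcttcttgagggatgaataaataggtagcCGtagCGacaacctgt
Fam129b: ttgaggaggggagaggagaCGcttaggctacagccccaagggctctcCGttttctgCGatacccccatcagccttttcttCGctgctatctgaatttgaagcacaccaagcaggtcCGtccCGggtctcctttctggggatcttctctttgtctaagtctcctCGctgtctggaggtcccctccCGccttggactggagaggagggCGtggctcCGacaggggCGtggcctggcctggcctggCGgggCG
The windows differed in CG content. Bcl6 held 21 CG and Fam129b 13, and 16.3% and 31.5% of the 32851 windows of this length in the table held as many. Il21 held 5 and Pdcd1 3, near the median of 6 over all windows, and 55.6% and 71.0% held as many. The letters GGAAA, the core bound by NFAT factors downstream of the T cell receptor, were counted on both strands. They occurred 3 times in the Il21 window, a number reached by 6.39% of windows, 2 times in that of Pdcd1, 1 time in that of Bcl6 and not in that of Fam129b, while 55.6% of all windows hold them at least once.

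The 8 libraries of spleen and pLNs held 13525932 to 15253141 reads assigned to genes and the 12 of mLNs 9998478 to 15449158, so that 3 counts, the limit used for a gene at 0, correspond to at most 0.299 CPM. CPM are read counts scaled to a common library size after TMM normalization. Foxp3, whose reporter was sorted on, lay between 153 and 419 CPM in every Treg library and at 2.75 CPM or less in every CD4+Foxp3- library. Neither Tet2 nor Tet3 was called lower in DKO Treg cells. Tet3 was 31.0 and 30.6 CPM in WT and 61.0 and 38.1 in DKO Treg cells of spleen and pLNs, and 69.0, 86.5 and 78.2 against 68.5, 48.4 and 73.3 in mLNs. Their counts cover exons outside the floxed part, so they do not check the deletion. The study describes the Treg samples as biological replicates. The p-values rest on a spread estimated from few samples over all 4 groups of a tissue and moderated across genes. They do not measure the spread of the compared groups alone. In sorted bulk RNA, more cells of a type and more RNA per cell cannot be told apart.

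In Treg cells of spleen and pLNs, none of the 10 genes passed the test between DKO and WT (edgeR's quasi-likelihood test, with calls made at 1.5-fold or more and an adjusted p up to 0.05), beside 1.74% of all genes tested. Fam129b was the 1 gene with an unadjusted p under 0.05, and also the 1 gene that DESeq2's Wald test called, beside 3.96% of all genes. All 10 log2 fold changes were positive, with a median of 0.48 beside 0.02 over all genes. Without DKO Treg replicate 1, 3 of them were negative (Pdcd1 -0.050, Il21 -1.26 and Maf -0.17), and Il21 was negative also without WT Treg replicate 1 (-0.14) and with the replicate block (-0.20). Of the 10 genes, 6 had both DKO libraries above both WT libraries, which held for 28.1% of all genes. Without DKO CD4+Foxp3- replicate 1 or replicate 2, whose spread enters the shared estimate, 4 genes were called, beside 12.6% and 11.9% of all genes, and without DKO Treg replicate 2, 1, beside 10.4%. Without any 1 of the other 5 libraries 0 were called, beside 0.0247% of all genes without either WT Treg library, 0.0687% without DKO Treg replicate 1, and 0.543% and 0.536% without WT CD4+Foxp3- replicate 1 or 2. In the same Treg libraries NK cell markers summed to 125 and 91.5 CPM in DKO and 9.99 and 8.77 in WT, CD8 T cell markers to 6.70 and 9.42 against 19.7 and 17.2, B cell markers to 18.5 and 12.6 against 31.1 and 28.6, and plasma cell markers to 193 and 129 against 144 and 144. Myeloid markers summed to 110.4 and 111 CPM in DKO against 116 and 112 in WT, but 2 of the 9 tested were called higher, 8 had an unadjusted p under 0.05 and their median log2 difference was 2.29, with Itgam at 6.49 to 15.5 CPM in DKO and 0.999 to 1.32 in WT. Of the B cell markers 1 was called higher and 1 lower, and of the 4 NK cell markers 2 were called higher. Most of the NK sum was Klrb1c, at 86.4 to 110 CPM in DKO and 6.06 to 7.30 in WT. The CD8 sum was mostly Cd8b1, at 6.64 to 9.28 CPM in DKO and 17.1 to 19.3 in WT, with Cd8a at most at 0.384. The part of each list was not tested.

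Among the transcription factors, Bcl6 was at 34.7 and 25.0 CPM in WT Treg cells and at 71.0 and 44.7 in DKO Treg cells, a log2 difference of 0.96 (SE 0.47, adjusted p = 0.272). The groups did not overlap, with replicate 1 far above replicate 2 in DKO. Tox2 was at 28.0 and 21.9 CPM in WT and 59.0 and 33.3 in DKO (log2 difference 0.89, adjusted p = 0.283). Maf overlapped, with 93.4 and 84.7 CPM in WT and 159 and 79.5 in DKO.

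Of the surface receptors of the same Treg cells, Cxcr5 was at 150 and 132 CPM in WT and 278 and 175 in DKO (log2 difference 0.68, adjusted p = 0.342). Icos was at 356 and 335 CPM in WT and 522 and 471 in DKO, without overlap. Pdcd1, at 218 and 167 CPM in WT and 274 and 187 in DKO, overlapped between the genotypes. Il21 was low in all 4 libraries, at 4.92 and 6.47 CPM in WT and 9.22 and 2.39 in DKO. Fam129b, at 3.69 and 4.52 CPM in WT and 12.6 and 7.78 in DKO, had the largest difference of the 10 genes (log2 difference 1.31, SE 0.33, adjusted p = 0.0669).

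In the CD4+Foxp3- cells of spleen and pLNs, 1 of the 10 genes passed the test, beside 0.819% of all genes tested and 0.77% called as higher. It was Fam129b, which rose from 2.05 and 1.77 CPM in WT to 8.73 and 6.30 in DKO (log2 fold change 1.97, SE 0.35, adjusted p = 0.0295). The other 9 differences were positive too, and the median over the 10 genes was 0.93 beside 0.00 over all genes. Without DKO CD4+Foxp3- replicate 1, 6 of the 10 were negative: Bcl6 (-0.35), Cxcr5 (-0.81), Pdcd1 (-0.24), Tox (-0.061), Tox2 (-0.35) and Sh2d1a (-0.0181). Without WT CD4+Foxp3- replicate 2, Cxcr5 (-0.095) and Sh2d1a (-0.027) were. In 3 genes (Fam129b, Il21 and Icos) the groups did not overlap, as in 20.8% of all genes.

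The 2 DKO libraries lay far apart. Icos was at 212 and 188 CPM in WT and at 1236 and 262 in DKO. Bcl6 was at 42.5 and 35.5 CPM in WT and at 126 and 30.7 in DKO, so that replicate 1 lay above and replicate 2 below both WT libraries. The same order held for Cxcr5, at 217 and 151 CPM in WT and 301 and 105 in DKO, and for Tox2, at 26.8 and 19.5 in WT and 64.7 and 18.2 in DKO. Il21 was at 44.6 and 40.2 CPM in WT and 234 and 52.4 in DKO, and Maf at 69.0 and 51.1 in WT and 270.1 and 62.9 in DKO. Pdcd1 was at 172 and 120 CPM in WT and 404 and 124 in DKO. Sh2d1a stayed within 91.8 to 118 CPM in all 4 libraries.

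**Figure D1:**
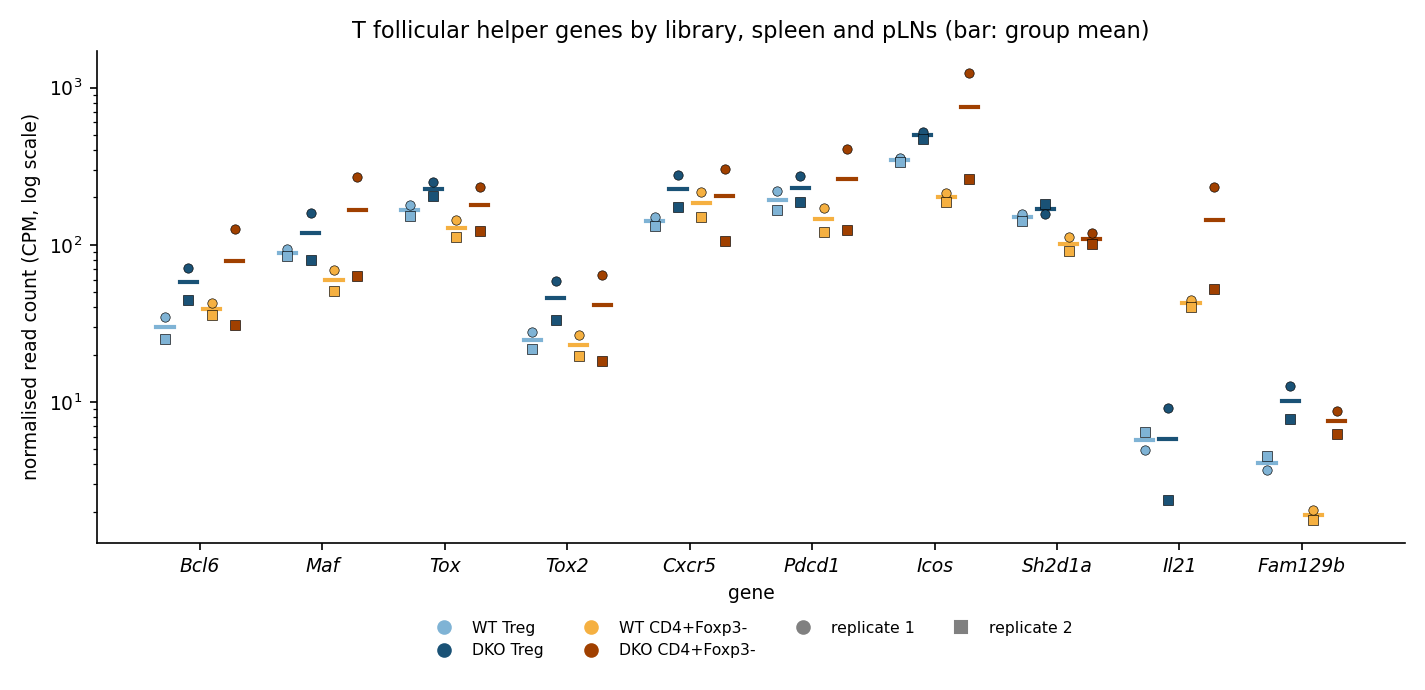
Normalised read counts (CPM, log axis) of the 10 genes in the 8 libraries of spleen and pLNs, with 1 point per library, the marker shape giving the replicate number and the bar the group mean. In CD4+Foxp3- cells replicate 1 of DKO stands above replicate 2 for each gene, for Icos at 1236 against 262 CPM, while the WT libraries lie close together.

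Replicate 1 was the higher DKO library for 10 of 10 genes in CD4+Foxp3- cells, and Treg cells showed the same order for 9 of 10. In WT, too, replicate 1 was the higher library for 10 of 10 genes in CD4+Foxp3- cells and 8 of 10 in Treg cells. Over the 10 genes, the median fold over the WT mean was 3.02 in replicate 1 and 0.976 in replicate 2 of CD4+Foxp3- cells, and 1.70 and 1.23 in Treg cells. The median ratio of the higher to the lower DKO CD4+Foxp3- library was 3.41 for the 10 genes and 1.20 over genes that averaged 5 CPM or more, and 1.25 for the 10 genes between the WT libraries. Leaving out replicate 2 of the DKO CD4+Foxp3- cells brought the calls in this comparison from 1 to 8, while the share of all genes called went from 0.819% to 16.9%, so the increase was not limited to the Tfh genes. Leaving out replicate 1 gave 1 call, beside 0.516% of all genes. Without any 1 of the other 6 libraries the count was 0, beside at most 0.0125%.

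Several marker sums of other cells stood apart in replicate 1 of the DKO CD4+Foxp3- cells. The summed level of 9 B cell markers was 38.8 CPM there, 7.78 in replicate 2 and 4.41 and 4.42 in WT. Plasma cell markers summed to 324 CPM, against 126 in replicate 2 and 92.7 and 87.1 in WT. The highest of the B cell markers there was Blk, at 27.2 CPM, while Ms4a1 reached at most 5.72 CPM and Cr2 at most 1.14 CPM in any library of the table. The summed level of 6 Treg markers was also highest in this library, at 756 CPM against 315, 337 and 284, while Foxp3 was at 0.251 CPM there. NK cell markers summed to 221 CPM, against 128 in replicate 2 and 128 and 76.9 in WT, and myeloid markers to 128, against 106 in replicate 2 and 84.8 and 81.4 in WT. CD8 T cell markers went the other way, at 5.09 CPM against 11.3 in replicate 2 and 17.8 and 14.8 in WT. The part of these cells in the levels of the Tfh genes was not tested.

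In mLN Treg cells, 6 of the 10 genes rose in DKO mice (Fam129b, Il21, Pdcd1, Bcl6, Icos and Tox) and none fell, while 11.9% of all genes tested passed in either direction and 8.5% passed as higher. The median log2 fold change of the 10 genes was 1.02 beside 0.00 over all genes. In 8 genes every DKO library lay above every WT library, as in 21.3% of all genes.

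Bcl6 was at 27.4, 27.1 and 28.4 CPM in WT Treg cells and at 106, 66.8 and 83.7 in DKO Treg cells. The lowest DKO library was thus well above the WT libraries, which lay close together, and the log2 fold change was 1.62 (SE 0.22, adjusted p = 0.000464). Among the other factors, Tox rose from 157, 146 and 137 CPM to 257, 262 and 219 (log2 fold change 0.74, adjusted p = 0.0349). Tox2 did not pass, with 32.3, 35.6 and 27.8 CPM in WT and 75.7, 44.5 and 47.6 in DKO (log2 difference 0.81, adjusted p = 0.187), although the groups did not overlap. Maf overlapped between the genotypes, with 217, 247 and 217 CPM in WT and 344, 171 and 246 in DKO (log2 difference 0.16, adjusted p = 0.816).

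The receptors Pdcd1 and Icos rose in mLN Treg cells. Pdcd1 went from 101, 94.8 and 79.7 CPM to 295, 256 and 302 (log2 fold change 1.63, SE 0.28, adjusted p = 0.00188). Icos went from 353, 363 and 359 CPM to 780.5, 954 and 745 (log2 fold change 1.21, SE 0.38, adjusted p = 0.0409). For both genes, the spread within a genotype was small beside the gap between them. Cxcr5 lay at 106, 118 and 114 CPM in WT and 218, 151 and 235 in DKO, without overlap, and did not pass (log2 difference 0.84, SE 0.30, adjusted p = 0.0695).

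The cytokine Il21 rose in mLN Treg cells from 4.44, 4.63 and 2.85 CPM to 34.7, 9.27 and 32.2 (log2 fold change 2.66, SE 0.66, adjusted p = 0.0140). Every DKO library was higher, and replicate 2 much less so than the others. Fam129b had the largest rise of the 10 genes, from 1.97, 1.41 and 1.97 CPM to 12.5, 13.0 and 14.9 (log2 fold change 2.92, SE 0.44, adjusted p = 0.000845). Sh2d1a, at 105, 106 and 90.4 CPM in WT and 126, 118 and 89.4 in DKO, overlapped (log2 difference 0.14, 95% interval -0.17 to 0.45).

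**Figure D2:**
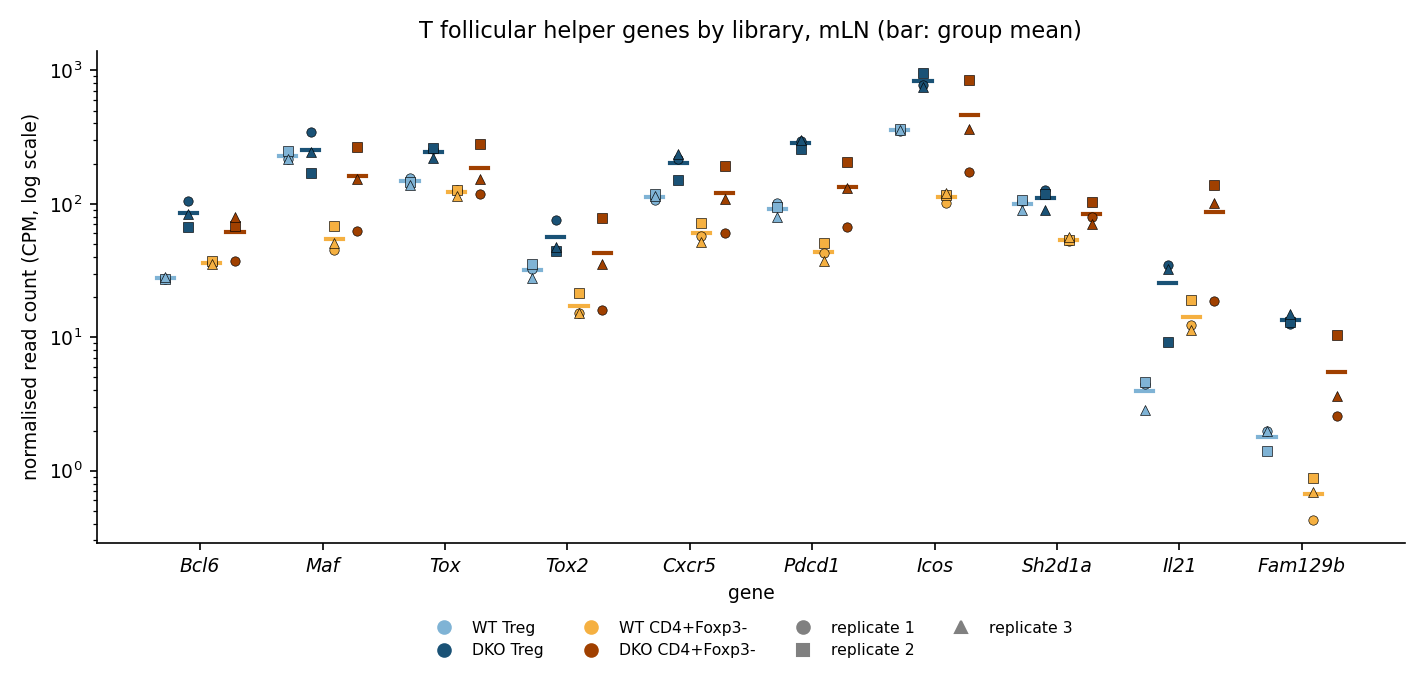
Normalised read counts (CPM, log axis) of the 10 genes in the 12 mLN libraries, with 1 point per library, the marker shape giving the replicate number and the bar the group mean. The DKO Treg libraries stand above the WT Treg libraries for 8 of the 10 genes, and the DKO CD4+Foxp3- libraries are spread widely, with Icos between 173 and 853 CPM.

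Bcl6, Pdcd1 and Fam129b were called in Treg cells of mLNs under all 17 alternatives, including each omission of a single library. Il21 was called in 14 of 17, Tox in 8 and Icos in 7. The count of genes called was 3 without WT Treg replicate 1 or replicate 3 (8.14% and 8.32% of all genes) and 8 without DKO CD4+Foxp3- replicate 1 or replicate 2 (13.8% and 15.9% of all genes). Without any other library the count was 4 to 6, beside 7.93% to 12.1% of all genes. Plasma cell markers were high in DKO Treg replicate 2, at 611 CPM summed against 108 to 123 in the other 5 Treg libraries, the library in which Bcl6, Cxcr5, Pdcd1, Maf, Tox2 and Il21 were lowest among the DKO libraries and Icos and Tox highest. B cell markers summed to 31.0 to 77.0 CPM in DKO and 27.6 to 36.6 in WT Treg cells. Of the 9, 3 were called higher and 1 lower, with a median log2 difference of 3.14, so the sums cover opposite movements. Blk was at 7.04 to 64.7 CPM in DKO and 0.493 to 0.992 in WT, and Cd79b at 5.45 to 16.4 in DKO and 26.4 to 34.2 in WT, with Ms4a1 at most at 0.503 CPM and Cr2 at 0.287 CPM in any mLN library. NK cell markers summed to 74.8 to 162 CPM in DKO and 9.86 to 11.4 in WT Treg cells. Most of that was Klrb1c, at 72.3 to 155 CPM in DKO and 5.02 to 8.19 in WT. In DKO, Ncr1 was at most at 0.917 CPM and Klre1 at 0. Myeloid markers summed to 95.4 to 125 CPM in DKO and 61.4 to 76.5 in WT, where 4 of the 9 tested were called higher. CD8 T cell markers summed to 2.95 to 3.94 CPM in DKO and 16.0 to 20.8 in WT, without overlap, and 1 of 2 was called lower. That sum was mostly Cd8b1, at 2.80 to 3.78 CPM in DKO and 15.7 to 20.5 in WT. Cd8a was at most at 0.579 CPM in any of these Treg libraries. The 6 Treg markers summed to 1574 to 1793 CPM in DKO and 2224 to 2348 in WT. The part of each in the result was not tested.

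In mLN CD4+Foxp3- cells 6 of the 10 genes also rose in DKO mice, beside 3.43% of all genes called in either direction and 3.12% called as higher. They were Fam129b, Il21, Icos, Pdcd1, Maf and Sh2d1a, and all 10 genes had a positive log2 fold change and an unadjusted p under 0.05. The median over the 10 genes was 1.43 beside 0.00 over all genes. In 5 genes the groups did not overlap, as in 11.1% of all genes.

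Icos was at 101, 117 and 120.4 CPM in WT and at 173, 853 and 364 in DKO (log2 fold change 2.04, SE 0.39, adjusted p = 0.0153). Pdcd1 was at 43.1, 50.9 and 37.5 CPM in WT and 67.2, 205 and 131 in DKO (log2 fold change 1.62, SE 0.29, adjusted p = 0.0112). In both, each DKO library was above each WT library, and replicate 2 was far above replicate 1. Il21 was at 12.3, 18.9 and 11.4 CPM in WT and 18.8, 139 and 101 in DKO (log2 fold change 2.60, SE 0.59, adjusted p = 0.0308), where replicate 1 lay within the WT range.

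Fam129b was at 0.426, 0.878 and 0.698 CPM in WT and 2.57, 10.4 and 3.62 in DKO, with a log2 fold change of 3.03 (SE 0.49, adjusted p = 0.00812). Its WT values are close to the limit of 3 counts. Maf was at 45.4, 68.0 and 51.3 CPM in WT and 62.6, 266 and 153 in DKO (log2 fold change 1.55, SE 0.39, adjusted p = 0.0451), and Sh2d1a at 52.4, 53.2 and 56.1 in WT and 79.0, 103 and 70.0 in DKO (log2 fold change 0.64, SE 0.15, adjusted p = 0.0302). Sh2d1a thus had a small change that was tight across libraries.

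Bcl6, Cxcr5, Tox and Tox2 did not pass in CD4+Foxp3- cells of mLNs. Bcl6 was at 36.1, 37.3 and 35.2 CPM in WT and 37.3, 67.8 and 79.2 in DKO (log2 difference 0.76, SE 0.22, adjusted p = 0.0742). Cxcr5 was at 57.1, 71.2 and 52.2 CPM in WT and 60.05, 193 and 108 in DKO (95% interval of the log2 difference 0.34 to 1.66, adjusted p = 0.0946). Tox and Tox2 had an adjusted p of 0.176 and 0.102. In each of the 4 genes replicate 1 of DKO lay within the WT range or, for Bcl6, just above it.

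**Figure D3:**
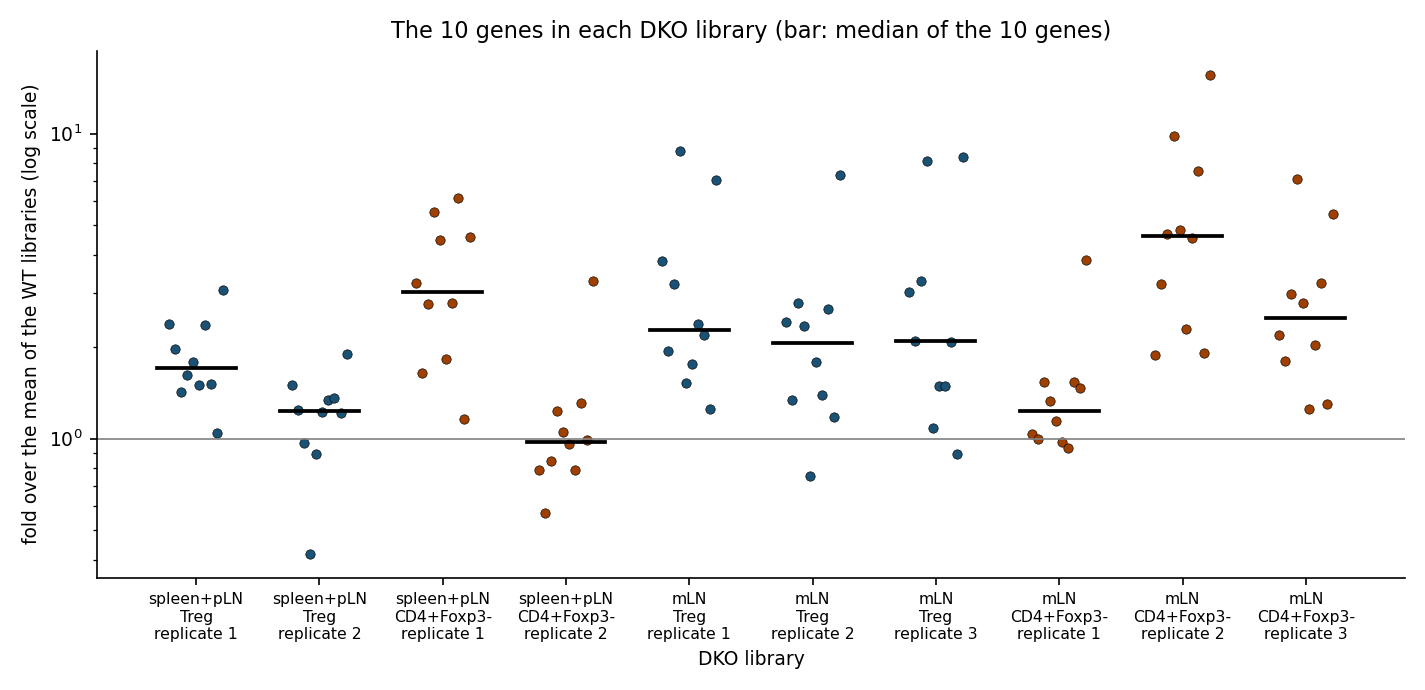
Fold of each DKO library over the mean of the WT libraries of its cell type and tissue (log axis), with 1 point for each of the 10 genes and a bar at their median. The medians run from 0.976 in replicate 2 of spleen and pLN CD4+Foxp3- cells to 4.61 in replicate 2 of mLN CD4+Foxp3- cells, and the 3 mLN Treg libraries are close together at 2.28, 2.06 and 2.09.

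Replicate 1 was the lowest DKO library for 9 of 10 genes in mLN CD4+Foxp3- cells and replicate 2 the highest for 9, with median folds over the WT mean of 1.23, 4.61 and 2.48 in replicates 1, 2 and 3. Without replicate 1, 10 of 10 genes were called, beside 8.69% of all genes, and without replicate 2 or 3, 3 and 4, beside 2.5% and 3.31%. Leaving out a WT CD4+Foxp3- library left 0 (replicate 1) or 1 (replicates 2 and 3), beside 0.413%, 0.341% and 0.658% of all genes. A block for the replicate number left 4 calls, beside 3.35% of all genes, with Il21 and Maf at an adjusted p of 0.0579 and 0.0693. Fam129b was called in 16 of 17 alternatives, Pdcd1 in 14, Icos and Sh2d1a in 13, Il21 in 9 and Maf in 5. DESeq2's Wald test called 9 of the 10 genes, all but Tox, beside 5.54% of all genes.

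Some marker sums of other cells, though not all, were highest in the library where most of the Tfh genes were. In replicate 2 of the DKO CD4+Foxp3- cells of mLNs, plasma cell markers summed to 700 CPM (699.7) and B cell markers to 18.0, against 78.0 and 126 and against 3.64 and 6.45 in replicates 1 and 3. In WT the sums were 61.4 to 71.5 and 2.79 to 3.23 CPM. The summed level of 6 Treg markers was 210.05, 415 and 288 CPM in DKO and 157 to 164 in WT, while Foxp3 was at 2.75, 0.211 and 1.33 CPM. NK cell markers (54.1, 141 and 82.0 CPM in DKO and 31.9 to 42.0 in WT) and myeloid markers (65.2, 113 and 54.5 in DKO and 51.3 to 55.6 in WT) were also highest in replicate 2. CD8 T cell markers were lowest there (9.49, 4.996 and 10.1 CPM in DKO and 21.5 to 23.3 in WT), and germinal centre B cell markers were highest in replicate 3 (13.0, 31.5 and 32.8 CPM in DKO and 12.4 to 19.3 in WT). Within the NK sum Klrb1c was higher in DKO (29.9 to 135 against 6.21 to 12.6 CPM in WT) and Eomes lower (5.42 to 22.9 against 24.3 to 35.3). The CD8 sum was mostly Cd8b1, at 4.996 to 9.63 CPM in DKO and 21.2 to 22.9 in WT, with Cd8a at most at 0.442. The part of each list was not tested.

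**Figure D4:**
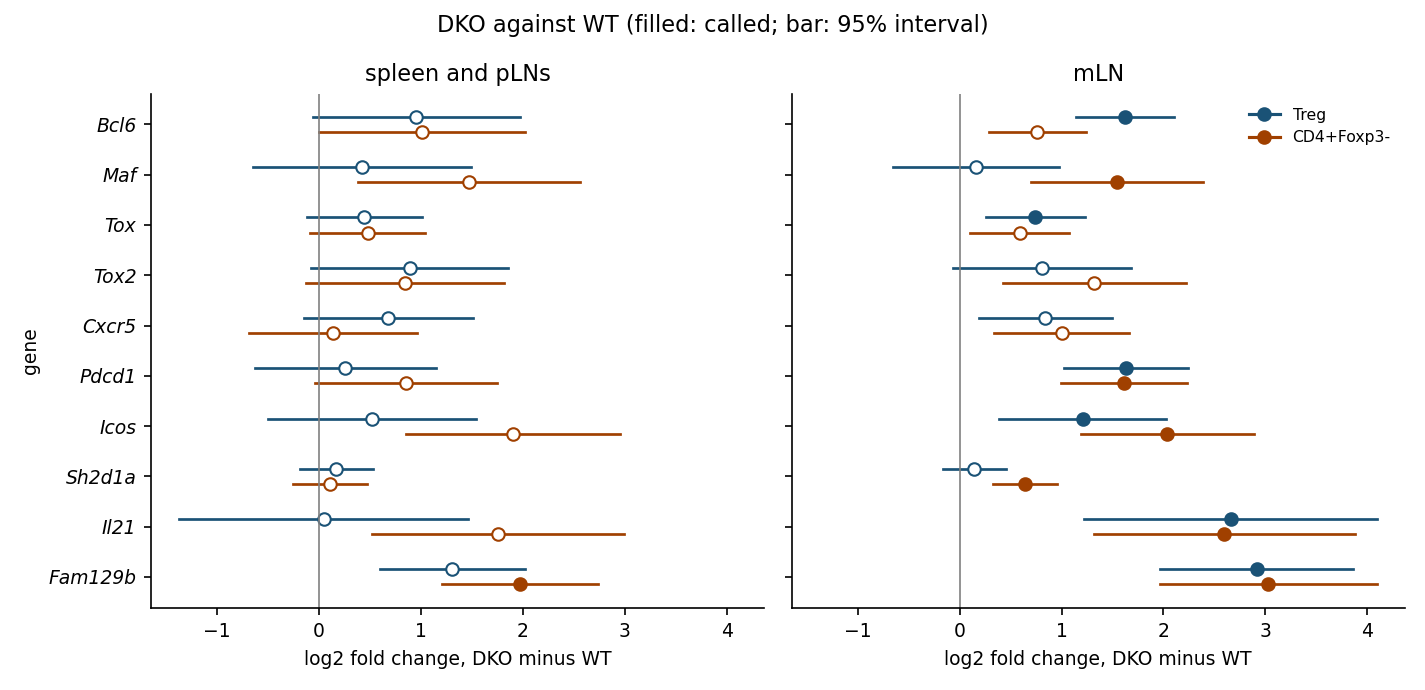
Log2 fold change between DKO and WT (DKO minus WT) of the 10 genes in Treg and CD4+Foxp3- cells of spleen and pLNs (left) and mLNs (right), with 95% intervals, and filled points for genes called. Each of the 40 points lies at or above 0, and the filled points are 1 on the left and 12 on the right.

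Whether the DKO effect differed between the cell types was asked with an interaction term, the effect in Treg cells minus that in CD4+Foxp3- cells. By edgeR it was called for none of the 10 genes in either tissue, beside 0.00611% of all genes in spleen and pLNs and 0.28% in mLNs. DESeq2 called none of the 10 either, beside 0.0672% of all genes in spleen and pLNs and 2.44% in mLNs. Leaving out DKO CD4+Foxp3- replicate 2 of spleen and pLNs gave 4 calls, beside 4.14% of all genes, and leaving out DKO CD4+Foxp3- replicate 1 of mLNs gave 1, beside 1.4%. In spleen and pLNs 0 genes had an unadjusted p under 0.05, and in mLNs 3 did: Bcl6, whose DKO effect was 0.86 larger in Treg cells on the log2 scale (95% interval 0.19 to 1.53, adjusted p = 0.303), Maf, whose effect was smaller there (log2 difference -1.38, 95% interval -2.54 to -0.22, adjusted p = 0.352), and Sh2d1a (log2 difference -0.50, adjusted p = 0.385). For Il21 in spleen and pLNs the estimate was -1.71 with a 95% interval of -3.59 to 0.16. Thus Bcl6 passing in Treg cells and Maf in CD4+Foxp3- cells of mLNs is not shown to be a difference between the cell types.

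Between the cell types of spleen and pLNs, Il21 was the 1 gene of the 10 called in each genotype. These comparisons use the same libraries as those between genotypes and are not independent of them. In spleen and pLNs of WT mice 1 of 10 genes passed, beside 4% of all genes tested and 1.52% called as lower, and in DKO mice 1 of 10, beside 3.77% and 1.61%, in both Il21. In WT, 5 genes lay higher in Treg cells without overlap and 3 lower, beside 28.1% and 27.2% of all genes, and in DKO, 1 and 1, beside 17.4% and 15.3%. In WT, Il21 was 2.89 lower on the log2 scale in Treg cells (SE 0.63, adjusted p = 0.0226), with 4.92 and 6.47 CPM against 44.6 and 40.2. In DKO it was at 9.22 and 2.39 CPM against 234 and 52.4 (log2 fold change -4.60, SE 0.66, adjusted p = 0.00182). The WT call was made in 5 of 13 alternatives and the DKO call in 12. Over those alternatives the log2 fold change of Il21 ran from -3.11 to -2.71 in WT and from -5.92 to -3.15 in DKO.

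In mLNs of WT mice 4 of 10 genes were higher in Treg cells, beside 10.1% of all genes called in either direction and 6.91% as higher. Maf differed most, at 217, 247 and 217 CPM in Treg cells against 45.4, 68.0 and 51.3 in the Foxp3- cells (log2 fold change 2.04, SE 0.39, adjusted p = 0.00360). Icos (log2 fold change 1.67, SE 0.39, adjusted p = 0.0111), Pdcd1 (1.06, SE 0.28, adjusted p = 0.0226) and Sh2d1a (0.90, SE 0.15, adjusted p = 0.00113) were also higher. All 10 genes separated without overlap, 8 with Treg cells higher and 2, Bcl6 and Il21, with Treg cells lower, beside 22.3% and 19.2% of all genes. Neither of these 2 passed, with a log2 difference of -0.39 for Bcl6 (95% interval -0.87 to 0.09) and -1.83 for Il21 (SE 0.67, adjusted p = 0.0909, called in 3 of 17 alternatives). Maf and Sh2d1a were called in 17 of 17 alternatives, Icos in 16 and Pdcd1 in 12. The count was 8 without DKO CD4+Foxp3- replicate 1 or replicate 2 (11.4% and 12.9% of all genes) and 2 without WT CD4+Foxp3- replicate 1 (6.91%).

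In mLNs of DKO mice 3 of 10 genes passed, beside 11.2% of all genes called in either direction, 7.75% as higher and 3.49% as lower. Pdcd1 and Fam129b, 2 of the 10, were also higher without overlap, as were 15.1% of all genes. Pdcd1 was higher in Treg cells, at 295, 256 and 302 CPM against 67.2, 205 and 131 (log2 fold change 1.08, SE 0.28, adjusted p = 0.0161), and so was Fam129b, at 12.5, 13.0 and 14.9 CPM against 2.57, 10.4 and 3.62 (log2 fold change 1.27, SE 0.39, adjusted p = 0.0412). Il21 was lower, at 34.7, 9.27 and 32.2 CPM against 18.8, 139 and 101 (log2 fold change -1.77, SE 0.57, adjusted p = 0.0477), with overlap. With a block for replicate number within genotype, by which the mLN samples of the cell types deviated together, 3 genes passed again, beside 11.6% of all genes. Il21 did not pass then (adjusted p = 0.172) and Icos did (log2 fold change 1.11, adjusted p = 0.0289). Il21 passed in 3 of 17 alternatives, Fam129b in 6 and Pdcd1 in 16. Without DKO CD4+Foxp3- replicate 2 the count was 7, without replicate 3 it was 0 and without replicate 1 it was 2, beside 17.6%, 9.43% and 9.54% of all genes. Without any other library the count was 1, beside 9.14% to 10.9%.

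**Figure D5:**
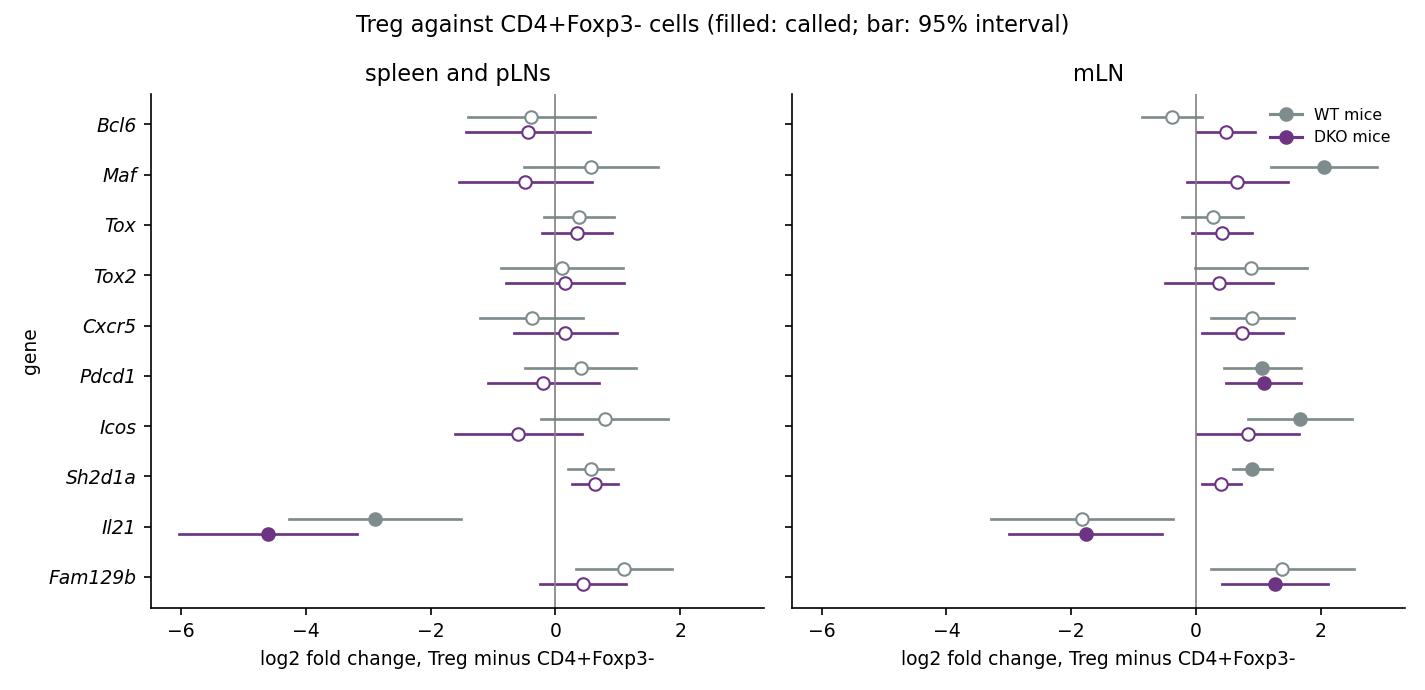
Log2 fold change between Treg and CD4+Foxp3- cells (Treg minus CD4+Foxp3-) of the 10 genes in WT and DKO mice, for spleen and pLNs (left) and mLNs (right), with 95% intervals, and filled points for genes called. Il21 lies furthest to the left in each panel, at -2.89 and -4.60 in spleen and pLNs, and Maf in WT mLNs furthest to the right at 2.04.

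Levels of different genes were compared by the deposited TPM, which are per transcript length. Sh2d1a was the highest of the 10 genes in each WT group, at 269 ± 22.8 TPM (SD, n = 2) in Treg cells of spleen and pLNs and 224 ± 15.4 (SD, n = 3) in those of mLNs, and Fam129b the lowest, at 1.63 ± 0.213 and 0.880 ± 0.159. Below Sh2d1a in WT mLN Treg cells came Icos at 201 ± 8.61, Maf at 114 ± 9.87, Tox at 93.9 ± 3.42 and Pdcd1 at 86.5 ± 7.93 TPM (SD, n = 3). Neighbours in this order overlapped in 3 of 9 pairs, among them Sh2d1a with Icos and Tox with Pdcd1. Bcl6 was eighth, at 15.4 ± 0.766 TPM, and Il21 ninth, at 2.27 ± 0.523.

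The order differed in DKO mice. Icos led in DKO mLN Treg cells at 522 ± 59.3 TPM (SD, n = 3), apart from Pdcd1 at 304 ± 34.2 and Sh2d1a at 280 (279.97) ± 53.4, which overlapped. Bcl6 was at 53.8 ± 14.2 and Il21 at 16.7 ± 9.47 TPM. In DKO CD4+Foxp3- cells of spleen and pLNs the SD of Icos, 434 TPM around a mean of 422 (n = 2), was as large as the mean, and 8 of 9 neighbouring pairs overlapped. TPM and CPM do not scale alike across libraries: Bcl6 had 0.442 to 0.450 TPM per CPM in WT Treg cells of spleen and pLNs and 0.496 to 0.636 in DKO Treg cells, so that folds by TPM are larger there.

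The other genes of the Tfh pathway were taken in 3 lists of 18 genes each. Of factors and signals that promote the Tfh fate, 2 of 18 rose and 2 fell in DKO mLN Treg cells, beside 8.5% of all genes called as higher and 3.43% as lower. Pou2af1, a coactivator of octamer factors known from B cells and Tfh cells, rose from 11.995 ± 1.47 to 103 ± 40.9 CPM (SD, n = 3, log2 fold change 3.10, SE 0.34, adjusted p = 0.000130), and Batf, an AP-1 factor, from 68.7 ± 3.52 to 135 ± 19.6 (log2 fold change 0.98, adjusted p = 0.00207). Il6ra, a receptor chain of the Tfh-inducing cytokine IL-6, fell from 149 ± 11.8 to 80.0 ± 23.7 CPM (log2 fold change -0.89, adjusted p = 0.0113). The median of the list was -0.09 beside 0.00 over all genes, and 7 had an unadjusted p under 0.05. DESeq2 called 5, beside 12.4% of all genes. In mLN CD4+Foxp3- cells 1 of 18 rose, beside 3.12% of all genes called as higher. The median was 0.04, 5 had an unadjusted p under 0.05 and DESeq2 called 2, beside 5.54% of all genes. The gene called was Irf4, from 54.8 ± 2.82 to 106 ± 36.8 CPM (adjusted p = 0.0403), called in 7 of 17 alternatives. Pou2af1, Batf and Il6ra were called in 17 of 17.

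Of other surface and secreted molecules of Tfh cells, 2 of 18 rose and 2 fell in DKO mLN Treg cells, against the same 8.5% and 3.43% of all genes. Their median was 0.23, 9 had an unadjusted p under 0.05 and DESeq2 called 5, beside 12.4% of all genes. The inhibitory receptor Btla rose from 97.5 ± 5.28 to 192 ± 35.5 CPM (adjusted p = 0.0247), while Slamf1, whose signal passes through SAP, fell from 101 ± 8.87 to 39.3 ± 9.75 (log2 fold change -1.36, adjusted p = 0.000130) and the cytokine receptor Il9r from 8.39 ± 0.687 to 2.05 ± 0.859 (SD, n = 3). Slamf1 and Il9r fell in Treg cells of spleen and pLNs too (log2 fold change -0.99 and -1.82), as did 1 other of the list, Sostdc1, beside 0.605% of all genes called as lower there. Slamf1 and Il9r were called there in 7 of 13 alternatives and Sostdc1 in 5, and the genes called in either direction ranged from 0.0247% to 12.6% of all genes over those alternatives. In mLN CD4+Foxp3- cells 3 of 18 rose and 1 fell, beside 3.12% of all genes called as higher and 3.43% in either direction. The median was 0.88 beside 0.00 over all genes, and 12 of 18 had an unadjusted p under 0.05. DESeq2 called 7, beside 5.54% of all genes. Tigit went from 16.5 ± 3.21 to 99.6 ± 81.0 CPM and Cd200 from 37.1 ± 4.06 to 172 ± 142 (SD, n = 3, log2 fold change 2.59 and 2.22), and Il9r fell by 1.76 on the log2 scale. Tigit and Cd200 were called in 13 of 17 alternatives and Il9r in 14, and in mLN Treg cells Btla in 12 and Slamf1 and Il9r in 17.

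Among genes that oppose the Tfh fate or lead away from the follicle, 7 of 18 fell and 1 rose in DKO mLN Treg cells, beside 3.43% of all genes called as lower. Prdm1, the repressor Blimp-1 that antagonises Bcl6, fell from 35.7 ± 0.986 to 14.2 ± 4.07 CPM (log2 fold change -1.33, SE 0.31, adjusted p = 0.00920). Il2ra, the IL-2 receptor chain CD25 and also a Treg marker, fell from 761 ± 50.6 to 351 ± 106 (log2 fold change -1.12, adjusted p = 0.00516). Gpr183, a receptor that holds cells at the edge of the follicle, fell from 92.7 ± 4.39 to 45.4 ± 16.1 (log2 fold change -1.03, adjusted p = 0.00184). The median of the list was -0.52 beside 0.00 over all genes, and 12 of 18 had an unadjusted p under 0.05. DESeq2 called 10, beside 12.4% of all genes. Prdm1, Il2ra and Gpr183 were each called in 17 of 17 alternatives. In mLN CD4+Foxp3- cells none of the 18 passed edgeR's test (3 at an unadjusted p under 0.05, and 1 by DESeq2). Of all genes, edgeR called 3.43% and DESeq2 5.54% there. In Treg cells of spleen and pLNs no promoting and no opposing gene passed (5 and 3 at an unadjusted p under 0.05, and 1 and 1 by DESeq2), and in CD4+Foxp3- cells no gene of the 3 lists did (5, 7 and 6, and 0, 2 and 0). By DESeq2, 3.96% of all genes were called in these Treg cells and 2.3% in these CD4+Foxp3- cells. By edgeR the shares were 1.74% and 0.819%.

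Genes whose log2 CPM followed a member most closely were taken by the lower of 2 Pearson correlations, over the 8 spleen and pLN libraries and over the 12 mLN libraries, among 8511 genes. For Bcl6 they were D930015E06Rik, Cxxc5 and Cdk5r1 (lower r 0.94, 0.93 and 0.93). For Cxcr5 the first was Tox2, itself one of the 10 genes (r = 0.91 and 0.95), followed by Mafg and Gpsm1. Pdcd1 was followed by Slc17a5, Hif1a and Abhd4 (lower r 0.97, 0.96 and 0.96), and Il21 by Lpar3, Hpcal1 and Mfsd6 (0.95, 0.92 and 0.90). The libraries share their groups, so a gene that differs between groups in the same way scores high. Among the 45 pairs of the 10 genes themselves the median r was 0.71 in spleen and pLNs and 0.79 in mLNs, and the lowest was Il21 with Sh2d1a, at -0.80 and -0.06.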

How the data were processed

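RNA of sorted cells from 20 samples was sequenced as single-end 50 bp reads from stranded mRNA libraries. The authors aligned reads to mm9 with TopHat2 2.1.1 and counted them, by strand, with featureCounts (Subread 1.4.3-p1) on RefSeq genes, and the deposited counts are whole reads per gene, without normalization. The authors also deposited TPM per gene, whose calculation is not given in the sources used here. At most 1 alignment was reported per read, so how reads shared with a near-identical copy were assigned is uncertain.

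Here each tissue was fitted on its own, with its 4 groups in 1 edgeR 4.0.16 quasi-likelihood fit (TMM, genes with at least 1 count, Benjamini-Hochberg adjustment over all genes tested). Genes were called at 1.5-fold or more with an adjusted p up to 0.05, and interactions by the adjusted p alone. Folds and CPM come from counts, and levels of different genes from TPM. For correlations, log2 CPM were taken after adding a prior count of 2. Alternatives were DESeq2's size factors, filterByExpr, DESeq2 1.42.0, a robust prior, a block for replicate number and omission of each library. R 4.3.3 with limma 3.58.1 and Python 3.11.15 were used.

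In mLNs, Treg and CD4+Foxp3- samples of the same number deviated together (r of deviations 0.276, 0.306 and 0.329 in WT and 0.145, 0.428 and 0.518 in DKO). Numbers were therefore taken to pair the cell types there, but only in the block alternative. The main fit had no block, so its comparisons of the cell types and its interactions treat the samples as unpaired. In spleen and pLNs, too, the study drew both DKO cell types from the same littermates, which the main fit leaves out. The labels do not state the pairing.

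The 10 genes and all lists were chosen with earlier results of these data known. Beside the 10 genes, the text names the 3 called genes with the largest fold of each list in mLNs, the 3 genes most like Bcl6, Cxcr5, Pdcd1 and Il21, and Tet2, Tet3 and Foxp3. Genes named only for completing a count, Sostdc1 among them, and marker genes named beside a sum were chosen after their values were seen. The level of 1 marker gene is not reported here.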

Additional observations from a re-analysis of the deposited data

Results flagged for a closer look

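Cxcr5 differed in direction between the tissues when Treg and CD4+Foxp3- cells of WT mice were compared. In mLNs it was higher in each Treg library, at 106, 118 and 114 CPM against 57.1, 71.2 and 52.2 (log2 difference 0.90, adjusted p = 0.0674 by edgeR's quasi-likelihood test), and in spleen and pLNs lower in both, at 150 and 132 CPM against 217 and 151 (log2 difference -0.38, adjusted p = 0.811). Neither passed the test, and the difference between the tissues was not tested.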

How the results depend on the processing

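Of 1500 comparisons of a single Tfh gene with an alternative, 1267 kept direction and side of the threshold, 103 lost the call, 62 gained it and 68 changed direction, and the cause was not tested. DESeq2's Wald test called 1 gene in Treg cells of spleen and pLNs, beside 3.96% of all genes. Between the cell types of DKO mice there it called 2, beside 4.39%. With filterByExpr, 0 were called in CD4+Foxp3- cells of spleen and pLNs and 0 between the WT cell types there, beside 0.00857% and 3.25% of all genes. With a robust prior these were 0 and 0, beside 0.116% and 2.95%, and between the DKO cell types of spleen and pLNs 0, beside 2.57%. DKO against WT in mLNs gave 3 calls in Treg and 3 in CD4+Foxp3- cells with that prior, beside 11.1% and 1.92%. By CPM in place of TPM, 4 of 10 genes kept their rank of level in WT Treg cells of mLNs.

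With the replicate block the counts were 0, 1, 1, 1 and 0 in spleen and pLNs (Treg, CD4+Foxp3-, cell types in WT, cell types in DKO, interaction) and 6, 4, 4, 3 and 0 in mLNs. In that order the block called 1.81%, 0.599%, 2.2%, 2.13% and 0% of all genes in spleen and pLNs. In mLNs these shares were 12.2%, 3.35%, 10.6%, 11.6% and 0.703%. The block turned the direction of 5 uncalled values: Il21 in Treg cells (-0.20), Pdcd1 between the DKO cell types (0.014), and the interactions of Bcl6 (0.23) and Tox (0.026), all in spleen and pLNs, and of Fam129b in mLNs (0.11). In spleen and pLNs same-numbered samples of the cell types correlated at 0.282 (WT) and 0.311 (DKO), from 2 pairs each, and between genotypes at 0.280 (0.2803) and 0.303. In mLNs the genotypes' samples shared only a number (r of deviations -0.043 to 0.182).

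Leaving out single libraries of mLNs gave, in the same order, 3 to 8, 0 to 10, 2 to 8, 0 to 7 and 0 to 1 genes called. The shares of all genes called there were 7.93% to 15.9%, 0.341% to 8.69%, 6.87% to 12.9%, 9.14% to 17.6% and 0.0538% to 2.77%. In spleen and pLNs an omission leaves a lone sample in a group, which is assumed to vary like the other groups. Log2 values that changed sign then ranged, in Treg cells of spleen and pLNs, from -0.050 to 0.51 for Pdcd1, -1.26 to 0.69 for Il21 and -0.17 to 0.83 for Maf. In CD4+Foxp3- cells they ranged from -0.35 to 1.70 for Bcl6, -0.81 to 0.71 for Cxcr5, -0.24 to 1.47 for Pdcd1, -0.061 to 0.87 for Tox, -0.35 to 1.48 for Tox2 and -0.027 to 0.25 for Sh2d1a. Between the cell types they ranged from -0.11 to 0.35 for Tox2 in WT, and in DKO from -1.13 to 0.91 for Bcl6, -0.41 to 1.10 for Cxcr5, -0.81 to 0.90 for Pdcd1, -1.18 to 0.92 for Maf, -0.046 to 0.88 for Tox, -0.48 to 1.34 for Tox2 and -1.32 to 0.92 for Icos. The interaction ranged from -0.74 to 1.301 for Bcl6, -0.027 to 1.49 for Cxcr5, -1.21 to 0.50 for Pdcd1, -1.74 to 0.36 for Maf, -0.42 to 0.51 for Tox, -0.59 to 1.24 for Tox2, -2.10 to 0.13 for Icos and -0.080 to 0.20 for Sh2d1a. In mLNs the ranges were -0.12 to 0.38 for Maf in Treg cells, -0.050 to 1.10 for Tox2 between the DKO cell types, and for the interaction -0.51 to 0.33 for Cxcr5, -0.33 to 0.43 for Pdcd1, -0.44 to 0.57 for Il21, -0.10 to 0.56 for Tox, -0.93 to 0.22 for Tox2 and -0.48 to 0.71 for Fam129b. Depth limits Fam129b in WT CD4+Foxp3- cells of mLNs, where 3 counts correspond to at most 0.299 CPM.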
